A study of Mus musculus with 9 samples.

Results

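Genes that fold secretory proteins in the endoplasmic reticulum (ER) and carry them out of it were measured by RNA-Seq in MC3T3-E1 osteoblasts and in mouse pulmonary endothelial cells (ECs). They comprised 45 genes from a given list of ER chaperones, disulfide enzymes, procollagen-modifying enzymes, translocon components, coat protein complex II (COPII) components and sensors of the unfolded protein response, found by mouse symbol (Tango1 as Mia3) among the 50686 genes of the count table. MC3T3-E1 is a mouse calvarial osteoblast line that secretes type I collagen, and SB216763 blocks the GSK3 kinases. The 3 groups held 3 libraries each, namely untreated control MC3T3-E1 cells, MC3T3-E1 cells given 10 μM SB216763 for 14 days, and untreated ECs that the study isolated by FACS. The culture time of the control cells and the animals behind the ECs are not given in the sources used here. The labels number the replicates but do not say that they came from separate cultures, so the p-values measure only the spread between these libraries. ECs are another cell type from another source, and the effect of cell type cannot be told apart from that of culture or isolation. In bulk RNA, fewer cells of a kind and less RNA per cell cannot be told apart either.

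A secreted protein is threaded into the ER through the Sec61 translocon while it is being translated, folds there with the help of chaperones, disulfide isomerases and glycan-binding lectins, and leaves in COPII-coated vesicles. Procollagen is a special load. Its chains are hydroxylated on prolines by prolyl 4-hydroxylase, isomerized at proline bonds by cyclophilins and FK506-binding proteins, and exported as a rigid rod too long for an ordinary COPII vesicle, with help from TANGO1 (gene Mia3). When unfolded protein accumulates, the sensors IRE1 (gene Ern1), ATF6 and PERK raise the transcription of chaperones and of ER-associated degradation, and osteoblasts additionally use the ER-bound transcription factor OASIS (gene Creb3l1), which acts on the Col1a1 promoter.

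Library totals ran from 30990107 to 68946333 counts, and all 45 genes passed the filter on low counts that left 15531 genes. Levels are given as CPM, counts relative to the library total after TMM scaling, and as the mean ± SD of 3 libraries. Fold changes and adjusted p-values come from the quasi-likelihood test of edgeR, adjusted by Benjamini-Hochberg over all 15531 genes, with standard errors (SE) on the log2 scale. A gene was called lower or higher at an adjusted p under 0.01, and past 4-fold when its log2 fold change was also at least 2 in size. Osteoblast markers summed to between 20080 and 28670 CPM in controls, 2825 to 2973 CPM after SB216763 and 28.9 to 38.3 CPM in ECs. The 8 endothelial markers summed to at least 6421 CPM in every EC library, but to at most 5.04 CPM in the SB216763 libraries and 4.13 CPM in controls, with 7 of 8 under 1 CPM in both MC3T3-E1 groups. The smooth muscle and pericyte list summed to at least 3118 CPM in controls and at most 898.5 CPM after SB216763, with Acta2 at 2913 ± 95.8 and 144 ± 9.10 CPM. Its genes did not move as one, since of 4 tested 2 were lower after SB216763, 1 was higher and 1 was not called. The leukocyte list summed to 25.9 to 27.7 CPM in controls, 8.28 to 9.88 CPM after SB216763 and 56.3 to 58.4 CPM in ECs. Of 2 leukocyte genes tested, 1 was lower and 1 higher after SB216763. Lung epithelial and adipocyte lists summed to at most 0.243 CPM in any library, the chondrocyte list to 54.6 to 65.8 CPM in controls and 118 to 122 CPM after SB216763, and the plasma cell list to at least 244.5 CPM in both MC3T3-E1 groups with 2 of its 3 genes under 1 CPM. The part of these other genes in the results below was not tested.

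Summed over genes, RNA for collagen chains fell far more after SB216763 than RNA for the machinery that folds and exports them, and the collagen sum was made up mostly of the type I chains in MC3T3-E1 cells. Collagen chain genes (44 genes) took 7.36, 5.624 and 7.003% of all counts in the 3 control libraries, 1.56, 1.56 and 1.62% after SB216763 and 1.15, 1.13 and 1.21% in ECs. The 45 secretory genes together took 1.25, 1.27 and 1.22% in controls, 1.12, 1.12 and 1.06% after SB216763 and 1.11, 1.13 and 1.11% in ECs. Every SB216763 library thus lay below every control library in both sums, but the collagen sum dropped from a mean of 6.66% to 1.58% and the secretory sum from 1.24% to 1.10%. These shares are of library totals, without TMM scaling. For each collagen count, the control libraries held 0.169, 0.225 and 0.174 secretory counts, and the SB216763 libraries 0.716, 0.719 and 0.654. An exact permutation test of 3 against 3 libraries cannot give a p below 0.1, so these ratios are given with their values alone. Within the collagen sum, Col1a1 and Col1a2, which encode the chains of type I collagen, made up 4.02 to 5.40% of control counts, 0.846 to 0.882% of SB216763 counts and at most 0.00516% of EC counts. The collagen of ECs was of other types, led by Col4a1 at 5020 ± 212 CPM, a basement membrane chain named after the values were seen.

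**Figure D1:**
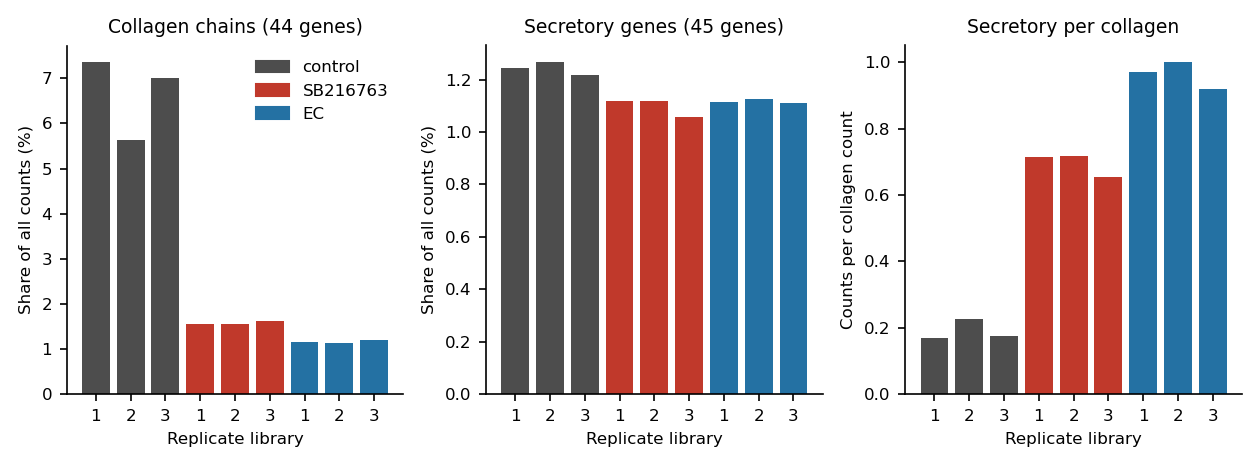
Bars give, for each of the 9 libraries (replicates 1 to 3 of control, SB216763 and EC), the share of all counts in percent taken by 44 collagen chain genes (left), the share taken by the 45 secretory genes (middle), and secretory counts per collagen count (right). The collagen share falls to between 1.56 and 1.62% after SB216763. The secretory share falls less, from between 1.22 and 1.27% in controls to between 1.06 and 1.12%, so the ratio rises above 0.65 in each treated library. Shares are of library totals, without TMM scaling.

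Measured gene by gene, 29 of the 45 secretory genes were lower in SB216763-treated cells than in controls, 7 were higher and 9 were not called. Of all genes tested, 32.0% were lower and 32.9% were higher, and of the 4787 genes at a mean of 50 CPM or more, 41.5% were lower and 35.8% higher. The changes were mostly moderate. Only Pdia5 fell past 4-fold, against 5.84% of all genes, and the largest rise, of Creb3l2, was a log2 fold change of 0.53, where 3.81% of all genes rose past 4-fold. A total of 19 genes were called with a change of under 0.5 on the log2 scale. The median log2 fold change of the 45 genes was -0.29, beside 0.014 over all genes. Of the 45 genes, Pdia5 alone (-2.37 ± 0.073 SE) fell about as far as Col1a2 (27820 ± 3560 to 5319 ± 69.5 CPM, log2 fold change -2.39 ± 0.13 SE, adjusted p = 9.19e-11), from which it differed by less than either SE, and the others fell less. Col1a1 (-3.17 ± 0.14) and Col3a1 (-3.29 ± 0.090), the chain of type III collagen, fell further. Of 34 collagen chain genes tested, 18 were lower (8 of them past 4-fold) and 7 higher (2 past 4-fold), with a median log2 fold change of -0.58, so that chains did not all move with the sum. Among the abundant ones the lowest were Col8a1 (-5.39) and Col12a1 (-4.51), and Col5a1 (-1.78) and Col5a2 (-2.52), of a collagen that forms fibrils with type I, were lower too.

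The scale on which libraries were compared matters for the smaller changes. With library totals alone, in place of TMM, the median log2 fold change of all genes between SB216763 and control moved to 0.218, with 24.6% of genes lower and 43.3% higher, and the secretory genes then counted 19 lower and 10 higher with a median of -0.087. Relative to the median of all genes, the secretory median was -0.30 on both scales. A change of scale shifts all genes about alike, so this difference had to stay nearly the same and does not speak for either scale. With library totals, 9 genes changed sign, of which Hyou1 alone had been called with TMM, and Calr, Canx, Dnajc3, Pdia4, P4hb, Sec61a1, Ssr1, Sar1a and Xbp1 kept their sign but were no longer called. In this comparison no sign changed with upper-quartile scaling, DESeq2's size factors or TMM factors computed without collagen genes.

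**Figure D2:**
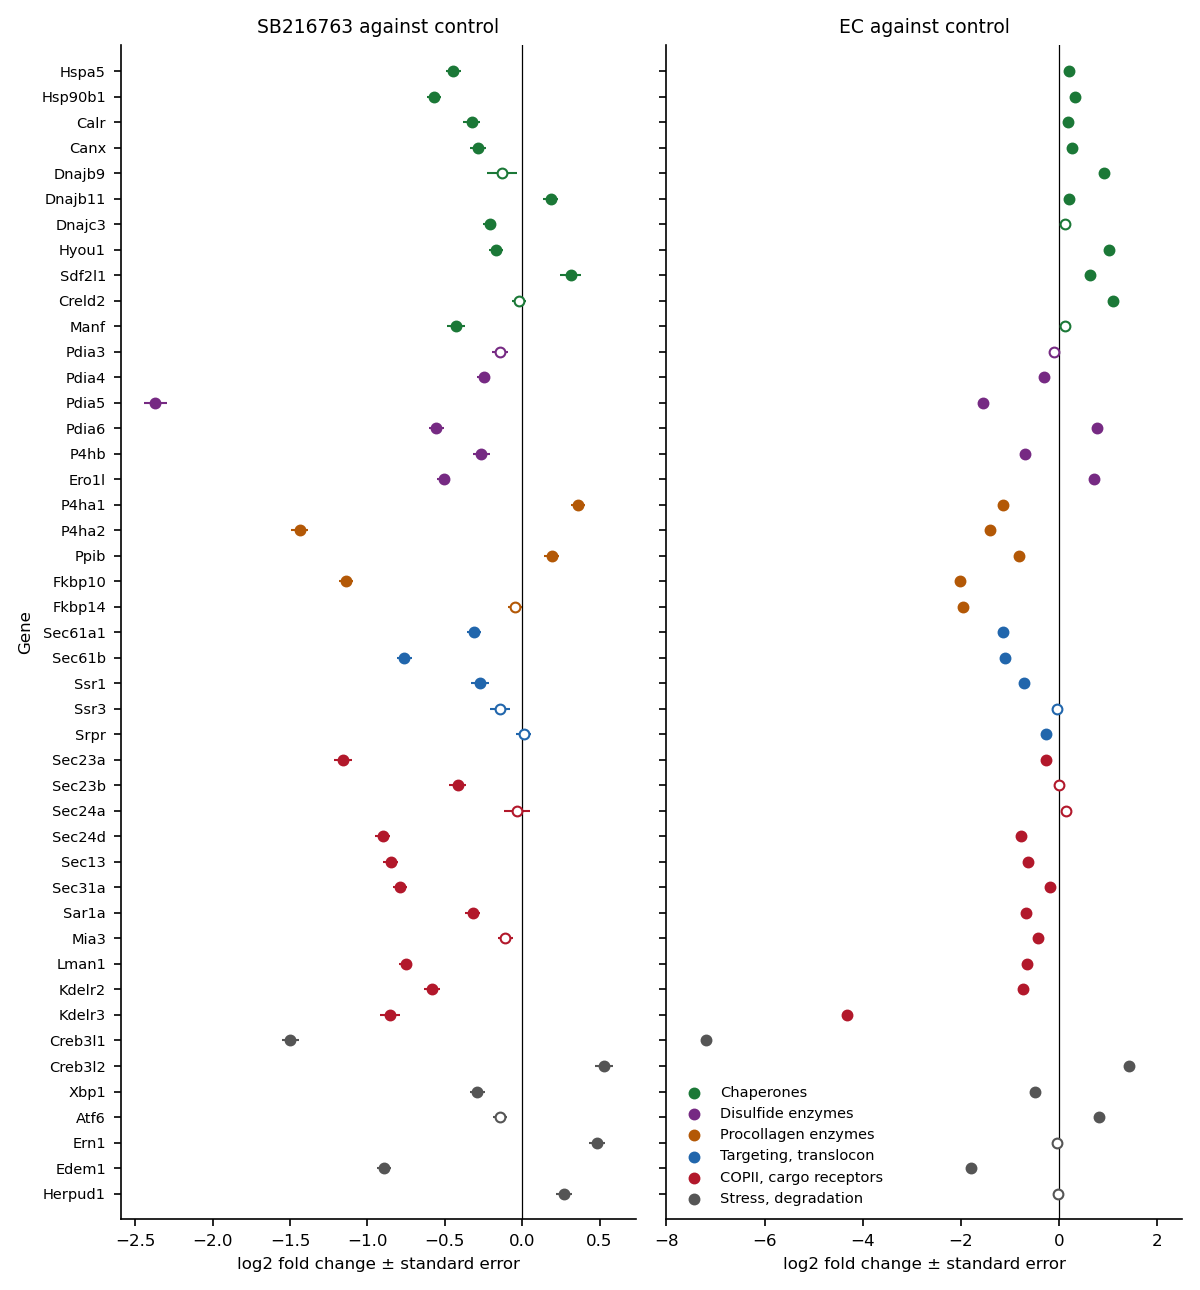
Log2 fold changes against control with SE for each of the 45 secretory genes, colored by role, for SB216763 (left) and EC (right, on a wider axis), where filled points passed an adjusted p of 0.01 and open points did not. On the left most points lie between -1 and 0 with Pdia5 apart at -2.37, and on the right the chaperones lie above 0 while Kdelr3 and Creb3l1 lie at -4.32 and -7.20.

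The chaperones and their cochaperones numbered 11, of which 7 were lower after SB216763, 2 were higher and 2 were not called. Beside this, 32.0% of all genes were lower and 32.9% higher. With library totals 3 were lower and 3 higher, beside 24.6% and 43.3% of all genes. Only Hspa5, Hsp90b1 and Manf were lower on both scales. Hspa5, which encodes BiP, the central Hsp70 chaperone and the brake on the stress sensors, measured 820.4, 845 and 821 CPM in the control libraries, 615, 625 and 586 CPM after SB216763 and 926, 949 and 961 CPM in ECs. The groups did not overlap, and its log2 fold change between SB216763 and control was -0.45 ± 0.048 SE (adjusted p = 4.04e-07). Hsp90b1, the ER Hsp90 known as GRP94, gave 569.9, 564 and 562 CPM in controls, 384, 387 and 373 CPM after SB216763 and 707, 731 and 690.5 CPM in ECs. Its fall, a log2 fold change of -0.57 ± 0.045 SE (adjusted p = 1.17e-08), was the deepest among the chaperones. The glycan-binding chaperones calreticulin (Calr, -0.32 ± 0.055) and calnexin (Canx, -0.29 ± 0.051), which hold newly glycosylated proteins in the ER, fell less. Manf, a small ER protein secreted under stress, went from 64.4 ± 4.55 to 48.0 ± 3.06 CPM, although exons of Dcaf1 and Rbm15b overlap it and reads could have been split among them.

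The remaining chaperone genes were closer to their control level. Dnajc3, a BiP cochaperone that also inhibits PERK, and Hyou1, the nucleotide exchange factor of BiP, were lower at log2 fold changes of -0.21 and -0.17. The Hyou1 call was lost without control replicate 1 or 3 or SB216763 replicate 1 or 2 (adjusted p 0.0108 to 0.0176), and also without the filter on low counts (0.0451). Dnajb11, a BiP cochaperone that binds unfolded chains, rose from 133 ± 1.61 to 151 ± 9.08 CPM (adjusted p = 0.00226), a call lost without any 1 of the same 4 libraries (adjusted p 0.0106 to 0.0241). Sdf2l1, a partner of Dnajb11, rose from 15.8 ± 1.33 to 19.8 ± 1.24 CPM (adjusted p = 5.50e-04). Dnajb9, a cochaperone strongly induced by the IRE1 branch, and Creld2, a stress-induced secreted ER protein, were not called, at adjusted p = 0.236 and 0.677.

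In ECs the chaperones stood the other way, with 9 of 11 higher than in controls, where 39.0% of all genes were higher. The largest differences were those of Creld2 (37.6 ± 1.32 in controls and 80.4 ± 1.71 CPM in ECs, log2 fold change 1.10), Hyou1 (1.0041) and Dnajb9 (0.91), while Dnajc3 and Manf were not called by TMM but were higher with library totals. Between SB216763-treated cells and ECs, 10 of the 11 were lower in the treated cells, where 40.3% of all genes were lower, and Dnajb11 was not called (adjusted p = 0.675). The median of the 11 genes was -0.55 in that comparison, beside -0.0205 over all genes. Summed, the chaperones took a smaller share of the treated libraries than of either other group, with 0.288 to 0.303% of all counts beside 0.321 to 0.332% in controls and 0.430 to 0.440% in ECs.

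The promoters of the chaperones are shown because many carry the ER stress response element (ERSE), a known binding sequence of ATF6 and the factor NF-Y. RefSeq windows of 250 bases before to 50 after the annotated start (GRCm38.p6) were found for 37 of the 45 genes and searched on both strands, leaving Hyou1, Manf, Fkbp10, Sec61a1, Lman1, Kdelr2, Creb3l1 and Atf6. ERSE was taken as CCAAT and CCACG 9 bases apart, its variant ERSE-II as ATTGG and CCACG 1 base apart, and the ATF6 and CREB type sequence as TGACGTGG. The last includes CGTGG, the reverse of the CCACG in the other motifs, so matches can share bases. ERSE was present in 7 of the 37 genes (18.9%) and in 0.119% of all 32851 windows. It occurred in Hspa5, Hsp90b1, Calr, Canx, Dnajc3, Creld2 and Pdia6, of which 6 are chaperones and Pdia6 is a disulfide isomerase. The stretches around the matches of Hspa5, Hsp90b1, Canx and Pdia6 follow, 5′ to 3′ on the strand of the gene, with the ends of the element in capitals. Those of Calr, Dnajc3 and Creld2 are not printed. Hspa5 is at chr2:34771985-34772083 on the plus strand, Hsp90b1 at chr10:86705493-86705694 on the minus strand, Canx at chr11:50325760-50325858 on the minus strand and Pdia6 at chr12:17266451-17266549 on the plus strand.
Hspa5: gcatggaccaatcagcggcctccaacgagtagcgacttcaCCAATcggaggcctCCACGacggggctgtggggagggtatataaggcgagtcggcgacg
Hsp90b1: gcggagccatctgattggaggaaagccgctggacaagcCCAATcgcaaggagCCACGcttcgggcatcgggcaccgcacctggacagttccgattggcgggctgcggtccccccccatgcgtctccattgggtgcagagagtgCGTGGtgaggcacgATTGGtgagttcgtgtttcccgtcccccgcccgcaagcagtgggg
Canx: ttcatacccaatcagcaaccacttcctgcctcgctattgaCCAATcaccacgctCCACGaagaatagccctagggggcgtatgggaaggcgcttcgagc
Pdia6: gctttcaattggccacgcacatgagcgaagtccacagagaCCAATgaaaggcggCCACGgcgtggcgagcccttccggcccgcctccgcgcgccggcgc

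The matches began at 65 (Hspa5), 145 (Canx) and 98 (Pdia6) bases before the start, and Hsp90b1 held a pair on opposite strands at 212 and 107 bases. The 7 genes with a match had log2 fold changes between SB216763 and control of -0.57 to -0.022 with a median of -0.32, and those of the 30 genes without one had a median of -0.26. Creld2, one of the 7, changed sign with library totals. Between ECs and controls, the 7 genes ranged from 0.11 to 1.10 with a median of 0.26, and the 30 others had a median of -0.38 with 6 of them above 0. Both comparisons share the control libraries, and the values are given as a description with no test. ERSE-II was found in Dnajb11 and Herpud1 and in 0.0365% of windows. Both genes rose after SB216763, by 0.18 and 0.27 on the log2 scale.

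Disulfide enzymes form and shuffle the bonds that lock a fold. Of the 6 genes, 5 were lower after SB216763, and 3 of these stayed called with library totals. Among all genes, 32.0% were lower, and 24.6% with library totals. Pdia5, a less studied member of the disulfide isomerase family, fell furthest of the 45 genes after SB216763. It measured 57.4, 58.7 and 52.7 CPM in controls, 10.7, 12.2 and 9.69 CPM after SB216763 and 19.96, 18.4 and 18.9 CPM in ECs. These ranges are far apart, with a 5.17-fold lower level after SB216763 (log2 fold change -2.37 ± 0.073 SE, adjusted p = 7.44e-14). ECs were also lower than controls (-1.56 ± 0.068), and the treated cells were lower than ECs (-0.81 ± 0.077, adjusted p = 6.42e-08). Pdia5 lies at chr16:35397312-35490873 (GRCm38) on the minus strand.

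The most abundant of the 45 genes per length of exon was P4hb, at 523 CPM per kilobase in controls, followed by Pdia3 at 288 and Calr at 263. P4hb encodes protein disulfide isomerase, which is also the constant subunit of prolyl 4-hydroxylase, and went from 1477, 1547 and 1468 CPM in controls to 1271, 1300 and 1171 CPM after SB216763, with 917, 926 and 940.1 CPM in ECs. The 3 groups did not overlap, but the treated difference was small (-0.26 ± 0.053 SE, adjusted p = 3.29e-04) and was not called with library totals. Pdia6, which also attenuates the sensor IRE1, fell after SB216763 (318 ± 12.3 to 216 ± 10.0 CPM, -0.56) and was higher in ECs (543 ± 7.38 CPM, 0.77). Ero1l, the oxidase that recharges the isomerases, moved likewise, at -0.51 after SB216763 and 0.71 in ECs. Pdia4 fell by 0.25 on the log2 scale. Pdia3, the isomerase that works with calnexin and calreticulin, was not called (902 ± 27.7 and 817 ± 36.7 CPM, adjusted p = 0.0180), but was called by DESeq2 (adjusted p = 0.0019) and limma-voom (0.0057).

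Of the 5 enzymes that act on procollagen, 2 were lower after SB216763, 2 higher and 1 not called, near the shares of all genes (32.0% lower and 32.9% higher), whereas all 5 were lower in ECs, where 37.9% of all genes were lower. P4ha1 and P4ha2 encode alternative catalytic subunits of prolyl 4-hydroxylase. P4ha2 measured 77.5, 80.0 and 76.0 CPM in controls, 30.8, 28.4 and 27.1 CPM after SB216763 and 29.2, 27.3 and 30.7 CPM in ECs. Treated cells and ECs overlapped in level, and both lay below the controls (log2 fold change after SB216763 -1.44 ± 0.054 SE, adjusted p = 1.10e-12). P4ha1, in contrast, rose from 339, 354 and 336 to 448, 448 and 425 CPM after SB216763 (0.36 ± 0.044 SE, adjusted p = 1.97e-06) and stood at 153, 158 and 156 CPM in ECs. The 3 groups were thus ordered treated, control, EC without overlap.

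The prolyl isomerases were 1 lower, 1 higher and 1 not called. Fkbp10, whose product FKBP65 binds procollagen and whose loss causes a brittle bone disease, gave 542, 552 and 528 CPM in controls, 243, 255 and 238 CPM after SB216763 and 132, 132 and 136 CPM in ECs. That was 2.20-fold lower after SB216763 (-1.14 ± 0.045 SE, adjusted p = 1.90e-12) and 4.06-fold lower in ECs. Fkbp14, a related isomerase, was at 135 ± 5.16 CPM in controls and 131 ± 6.66 CPM after SB216763, which was not called, and at 34.6 ± 1.22 CPM in ECs (-1.97). With library totals Fkbp14 turned to 0.16 and was called higher (adjusted p = 0.0055). Ppib, cyclophilin B, rose from 100.4 ± 5.50 to 115 ± 4.51 CPM (adjusted p = 0.00283), a call lost without control replicate 3 or SB216763 replicate 1 or 2 (adjusted p 0.0123 to 0.0271). The strand setting of the counting is not given in the sources used here, and exons of Nt5c3b on the other strand overlap Fkbp10 and those of Plekha8 overlap Fkbp14, so their counts are uncertain to the extent that reads were shared. Fkbp10 lies at chr11:100415697-100424824 (GRCm38).

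**Figure D3:**
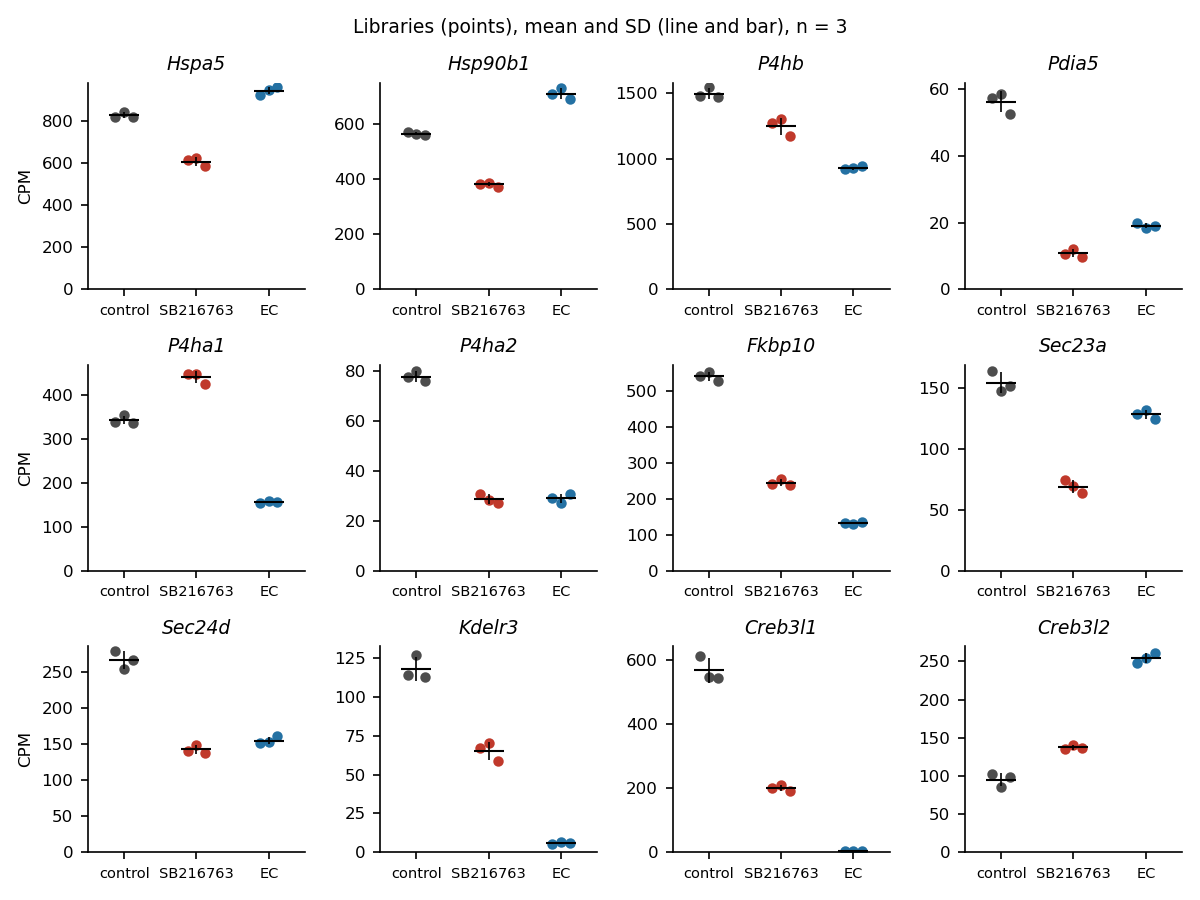
CPM of 12 secretory genes in each library (points) with the group mean and SD (line and bar, n = 3), on linear axes that start at 0. Hspa5 and Hsp90b1 are lowest after SB216763, P4ha1 and P4ha2 move apart, and Creb3l1 and Kdelr3 step down from control to SB216763 to EC.

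The targeting and translocation genes bring a nascent chain to the ER membrane and through it. Of 5 genes, 3 were lower after SB216763, and only Sec61b was lower with library totals as well. The shares of all genes lower were 32.0%, and 24.6% with library totals. Sec61b, the small beta subunit of the channel, gave 129.5, 143 and 132 CPM in controls and 80.0, 82.9 and 75.8 CPM after SB216763 (-0.76 ± 0.050 SE, adjusted p = 1.04e-09). Sec61a1, the pore subunit, went from 412 ± 14.7 to 332 ± 14.1 CPM (-0.31), and Ssr1, a subunit of the translocon-associated protein complex, from 384 ± 17.2 to 318 ± 16.3 CPM (-0.27). Neither Ssr3, of the same complex (-0.15 ± 0.064 SE), nor Srpr, the receptor of the signal recognition particle (0.0097 ± 0.048 SE), was called, although Srpr was called higher with library totals (0.21, adjusted p = 4.32e-04) and overlaps exons of Fam118b and Tirap. ECs held less RNA of 4 of the 5 genes than controls, where 37.9% of all genes were lower, and Ssr3 was not called. Sec61a1 was at 188 ± 2.33 CPM (-1.14) and Sec61b at 62.3 ± 1.01 CPM (-1.11) in ECs.

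Of the 11 COPII coat and cargo receptor genes, 9 were lower after SB216763, and 8 of them were lower with library totals. Of all genes tested, 32.0% were lower (41.5% of those at 50 CPM or more), and 24.6% with library totals. The median log2 fold change of the 11 genes was -0.75, the lowest of the 6 roles. In ECs 9 of the 11 were likewise lower than in controls, with a median of -0.63, where 37.9% of all genes were lower. With library totals 7 were lower in ECs and 1 higher, beside 33% and 44.1% of all genes. Between treated cells and ECs, 4 were lower and 3 higher in treated cells, with a median of -0.12, where 40.3% of all genes were lower and 38.3% higher. Sec23a, which forms the inner COPII layer and whose loss disturbs skull and bone formation, measured 164, 147 and 152 CPM in controls, 74.5, 69.4 and 63.6 CPM after SB216763 and 129, 132 and 125 CPM in ECs. Treated libraries lay well below both other groups, 2.23-fold under the controls (-1.16 ± 0.059 SE, adjusted p = 4.15e-11) with a log2 fold change of -0.89 against ECs. Sec24d, the cargo-binding partner linked to brittle bone disease, gave 279, 254 and 268 CPM in controls, 141, 149.5 and 138 CPM after SB216763 and 152, 152 and 161 CPM in ECs. Here treated cells and ECs were both below the controls (-0.90 ± 0.049 SE after SB216763, adjusted p = 1.09e-10). The outer coat fell as well, with Sec13 at -0.85 ± 0.050 SE and Sec31a at -0.79 ± 0.047 SE. Sar1a, the GTPase that starts the coat, fell by 0.32.

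The related coat genes changed less. Sec23b, the paralog of Sec23a, fell from 63.7 ± 3.63 to 47.8 ± 3.05 CPM (-0.42 ± 0.053 SE), and Sec24a, a cargo-binding relative of Sec24d, measured 68.2, 49.6 and 60.2 CPM in controls and 59.2, 56.4 and 58.4 CPM after SB216763 with overlapping groups (adjusted p = 0.733). TANGO1 (Mia3), the procollagen export receptor, was not called (171 ± 10.3 and 158 ± 2.81 CPM, -0.11 ± 0.047 SE, adjusted p = 0.0484). Without control replicate 2 it was called, at a log2 fold change of -0.16 (adjusted p = 0.00197).

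Cargo receptors that cycle between ER and Golgi fell as well. Lman1, a lectin that exports coagulation factors and other glycoproteins, went from 272 ± 7.76 to 161 ± 3.48 CPM after SB216763 (-0.75 ± 0.043 SE, adjusted p = 1.99e-10). Kdelr2 and Kdelr3 encode receptors that return escaped chaperones to the ER. Kdelr2 fell from 317 ± 14.2 to 212 ± 12.6 CPM (-0.58), with 189.7 ± 2.41 CPM in ECs. Kdelr3 gave 114, 126 and 112 CPM in controls, 66.8, 70.2 and 58.5 CPM after SB216763 and only 5.52, 6.54 and 5.77 CPM in ECs. The steps were -0.85 ± 0.067 SE for SB216763 and -4.32 ± 0.084 SE for ECs, the latter 19.9-fold lower. Exons of Ddx17 overlap Kdelr3 on the other strand, and Ddx17 held more counts than Kdelr3 over the libraries, so part of the Kdelr3 counts is uncertain.

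The sequence TGACGTGG was found in the windows of Sec24d, Kdelr3 and Sec23a, 3 of 37 genes (8.11%), and in 0.676% of all windows. These 3 genes had log2 fold changes of -1.16 to -0.85 after SB216763. The 34 genes without the sequence had a median of -0.26 and ran from -2.37 to 0.53. The stretches of the 3 genes are printed, with the match in capitals, because the genes are among the deeper falls. Sec24d and Sec23a are coat genes, and Kdelr3 is a retrieval receptor. Sec24d is at chr3:123267430-123267495 on the plus strand, Kdelr3 at chr15:79516338-79516407 on the plus strand and Sec23a at chr12:59011994-59012021 on the minus strand, and in Kdelr3 the match is on the opposite strand and so reads CCACGTCA.
Sec24d: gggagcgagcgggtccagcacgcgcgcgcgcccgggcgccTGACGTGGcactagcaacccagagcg
Kdelr3: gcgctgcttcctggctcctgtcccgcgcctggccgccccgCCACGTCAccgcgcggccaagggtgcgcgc
Sec23a: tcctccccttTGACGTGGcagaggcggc
The matches start 26 bases before the annotated start in Sec24d, 30 before it in Kdelr3, and at base 7 of the transcript in Sec23a. Other falling export genes with a window, such as Sec13 and Sec31a, held none, which says only that these letters are not in that window.

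Of the 7 stress sensors, transcription factors and degradation genes, 3 were lower after SB216763 (42.9%), 3 higher (42.9%) and 1 not called. Of all genes tested, 32.0% were lower and 32.9% higher, and of those at 50 CPM or more 41.5% were lower and 35.8% higher. The 7 genes lay nearer to the latter shares, although Ern1 lay under 50 CPM in controls (38.9) and ECs (37.9). Creb3l1 (OASIS), the osteoblast factor, measured 614, 547 and 546 CPM in controls, 201, 209.8 and 193 CPM after SB216763 and 3.82, 3.74 and 4.01 CPM in ECs. The groups were far apart, with a 2.83-fold lower level after SB216763 (-1.4997 ± 0.054 SE, adjusted p = 6.39e-13) and a 147-fold lower level in ECs (-7.20 ± 0.076 SE). It was the widest difference between ECs and controls among the 45 genes. Creb3l2, its paralog known for driving Sec23a in cartilage, went the other way, with 102, 85.9 and 98.1 CPM in controls, 135, 141 and 137 CPM after SB216763 and 248, 255 and 261 CPM in ECs. Its levels rose in that order without overlap (0.53 ± 0.057 SE after SB216763, adjusted p = 4.66e-07, and 1.42 ± 0.057 SE in ECs). Creb3l1 lies at chr2:91982328-92024502 (GRCm38) and Creb3l2 at chr6:37327255-37442146 (GRCm38).

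Of the classical sensors, Ern1 (IRE1) rose from 42.0, 35.5 and 39.2 to 55.6, 53.9 and 53.6 CPM (0.48 ± 0.054 SE, adjusted p = 7.40e-07) and was not called in ECs. Atf6 was not called after SB216763 (-0.14 ± 0.046 SE, adjusted p = 0.0113), though DESeq2 (adjusted p = 0.0071) and limma-voom (0.0085) called it lower, and ECs held more of it (178 ± 3.79 against 101 ± 4.66 CPM). Xbp1, whose RNA is spliced by IRE1 to give the active factor, went from 137 ± 5.56 to 112 ± 6.39 CPM (-0.29 ± 0.049 SE), and gene counts do not separate its spliced form. The degradation genes split. Edem1, a lectin that hands misfolded glycoproteins to degradation, fell from 294, 294 and 301 to 162, 162 and 155 CPM (-0.89 ± 0.043 SE, adjusted p = 2.17e-11), with 82.2, 88.2 and 85.4 CPM in ECs. Herpud1, a scaffold of the degradation complex and a common stress target, rose from 74.2 ± 2.98 to 89.6 ± 5.22 CPM (0.27 ± 0.050 SE, adjusted p = 1.62e-04). The fall of Edem1 and the rises of Ern1 and Herpud1 kept their calls with library totals.

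Ratios of related genes within a library do not depend on how libraries are scaled. They were computed for 6 pairs chosen after the values were seen, and each is given without further reading, since the smallest p that an exact permutation test allows here is 0.1. P4ha1 counts per P4ha2 count were 4.37, 4.42 and 4.42 in the control libraries, 14.6, 15.8 and 15.7 after SB216763 and 5.24, 5.78 and 5.08 in ECs. The treated libraries stood above both other groups, and ECs stood above controls without overlap, by 1.22-fold. Creb3l2 per Creb3l1 was 0.166, 0.157 and 0.180 in controls, 0.669, 0.673 and 0.709 after SB216763 and 64.8, 68.0 and 65.2 in ECs, so that only ECs held more of Creb3l2. Fkbp14 per Fkbp10 was 0.256, 0.248 and 0.244 in controls and 0.555, 0.525 and 0.516 after SB216763, with 0.255, 0.273 and 0.251 in ECs, where the range overlapped that of controls. For the coat, Sec23b per Sec23a rose from a mean of 0.412 to 0.692 and Sec24a per Sec24d from 0.222 to 0.407. Kdelr2 per Kdelr3 went from a mean of 2.70 to 3.26 after SB216763 and was 32.1 in ECs. The numerator of each pair is the gene that fell less or rose after SB216763, so the direction of these ratios follows from the choice. Against the cargo, Hspa5 counts per Col1a1 count were 6.51 times as high in treated cells as in controls. Those of P4hb were 7.38 times as high and those of Sec23a 3.97 times. Col1a1 fell further than each of these genes, so the direction of these ratios was fixed as well. By TMM the log2 fold changes of Hspa5, P4hb and Sec23a after SB216763 were -0.45, -0.26 and -1.16. A gene with no change would thus have risen more against Col1a1 than they did. These ratios reflect the fall of Col1a1 and do not show that the machinery was kept up.

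**Figure D4:**
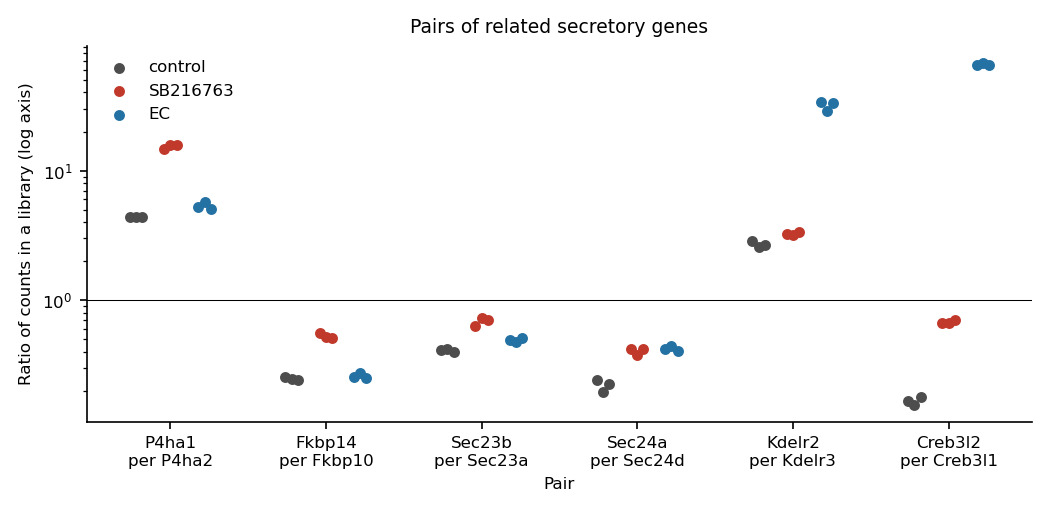
Ratio of counts of 6 pairs of related secretory genes within each library on a log axis, for control, SB216763 and EC (3 points each), with a line at 1. The gene that fell less or rose after SB216763 was put first in each pair, which fixes that the SB216763 points lie above the controls, and the EC points are far above both only for Kdelr2 per Kdelr3 and Creb3l2 per Creb3l1.

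Other genes of the same pathways, from lists written for this work, gave a mixed picture after SB216763. Of 15 other procollagen folding genes tested, 10 were lower (66.7%) and 3 higher (20%), with a median log2 fold change of -0.39. The background for this and the next lists is 32.0% lower and 32.9% higher among all genes tested. Among genes at 50 CPM or more it is 41.5% and 35.8%. Serpinh1, the collagen chaperone HSP47, went from 3063 ± 138 to 1215 ± 81.8 CPM (-1.33 ± 0.060 SE, adjusted p = 8.62e-12). Because Col1a1 fell further, Serpinh1 counts per Col1a1 count were 3.51 times as high as in controls. Fkbp11 (-1.57 ± 0.071), a prolyl isomerase of secretory cells, and P3h1 (-1.07 ± 0.045), the prolyl 3-hydroxylase of collagen, fell too. The largest change in the list went the other way, with P3h2, another prolyl 3-hydroxylase, at 1.15 ± 0.118 CPM in controls, 6.01 ± 0.514 after SB216763 and 24.3 ± 0.417 CPM in ECs (2.42 ± 0.11 SE after SB216763, adjusted p = 6.76e-12), named after its values were seen because it lies under the 10 CPM set for naming. Of 25 other genes of targeting, translocation, signal peptide removal and N-glycosylation, 14 were lower (56%) and 5 higher (20%). Ssr4 was at -1.06, Ostc at -0.90 and Srp14 at 0.96. The 24 other genes of ER exit and retrieval were 10 lower (41.7%) and 7 higher (29.2%). The lower share was near the 41.5% of genes at 50 CPM or more and above the 32.0% of all genes tested. Lman2 (0.84) and Sec24c (0.77) were higher and Mia2 (-0.68), a partner of TANGO1, was lower.

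Among 28 other genes of the stress response and ER-associated degradation, 15 were higher after SB216763 (53.6%) and 5 lower (17.9%), with a median of 0.18, beside 32.9% higher and 32.0% lower among all genes tested. Ddit3, which encodes the stress-induced factor CHOP, measured 47.1, 50.5 and 48.0 CPM in controls and 105, 106 and 107 CPM after SB216763 (1.13 ± 0.044 SE, adjusted p = 1.78e-12). Edem2, which trims glycans for degradation, rose as well (0.89 ± 0.050). Trib3, a target of the ATF4 and CHOP branch, moved the opposite way, from 107 ± 3.41 to 27.3 ± 2.30 CPM (-1.97 ± 0.057).

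**Figure D5:**
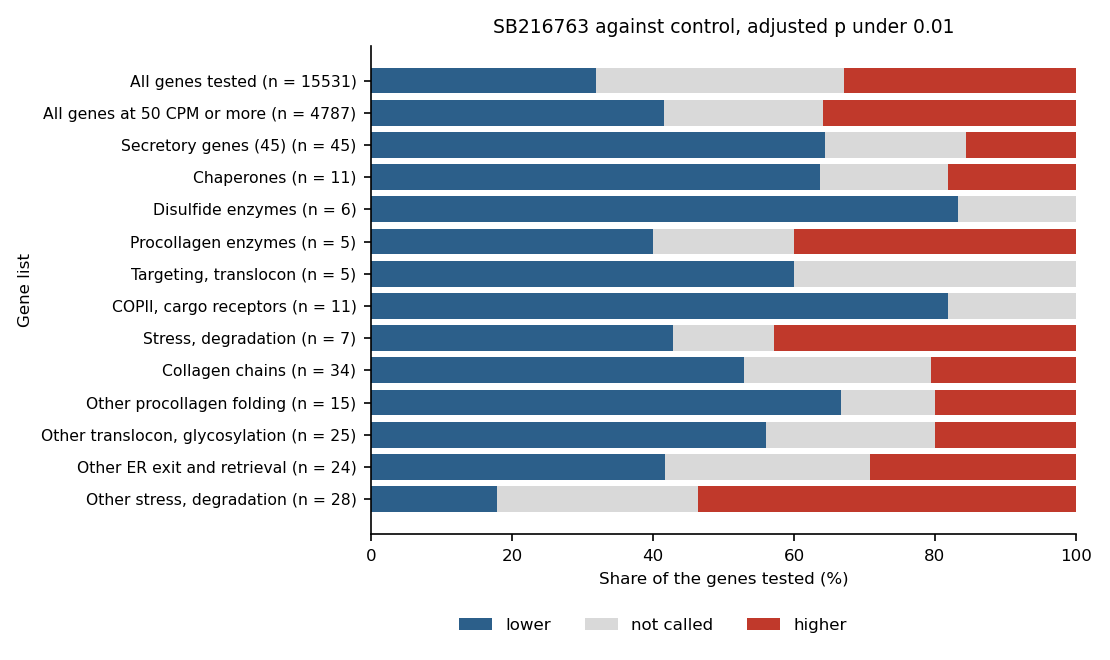
Stacked bars give, for each gene list, the share of genes tested (percent) that were lower, not called or higher in SB216763-treated cells against controls at an adjusted p under 0.01. The lower share is 81.8% for COPII and cargo receptors, 64.4% for the 45 secretory genes and 32.0% for all genes tested, and the higher share is 53.6% for the other stress and degradation genes and 32.9% for all genes tested.

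Between ECs and controls, 24 of the 45 genes were lower, 13 higher and 8 not called, where 37.9% of all genes were lower and 39.0% higher. The 3 genes past 4-fold were Creb3l1, Kdelr3 and Fkbp10, all lower in ECs, where 9.87% of all genes fell past 4-fold, and the largest EC excess was that of Creb3l2 at 1.42, where 13.5% of all genes rose past 4-fold. Both comparisons rest on the same control libraries, so values of single genes are given side by side only, as log2 fold changes after SB216763 and in ECs. Some genes were called in opposite directions by TMM and by library totals alike, such as Hspa5 (-0.45 and 0.19), Hsp90b1 (-0.57 and 0.33), Pdia6 (-0.56 and 0.77), Ero1l (-0.51 and 0.71) and P4ha1 (0.36 and -1.14). With library totals Calr and Canx lost the call after SB216763. Other genes were lower in both comparisons on both scales, such as Pdia5 (-2.37 and -1.56), P4ha2 (-1.44 and -1.42), Fkbp10 (-1.14 and -2.02) and Edem1 (-0.89 and -1.80).

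Direct comparison of SB216763-treated cells with ECs found 19 genes lower in treated cells, 17 higher and 9 not called, where 40.3% of all genes were lower and 38.3% higher. The 2 genes past 4-fold were Creb3l1 (5.70 ± 0.074 SE) and Kdelr3 (3.46 ± 0.085 SE), both higher in treated cells, where 10.3% of all genes were higher and 15.0% lower past 4-fold. The deepest deficit of treated cells was that of Pdia6 (-1.33 ± 0.050 SE). Procollagen enzymes stayed higher in treated cells in 4 of 5 genes, led by Fkbp14 (1.92) and P4ha1 (1.5007). P4ha2 was not called (28.8 ± 1.85 and 29.1 ± 1.69 CPM, a difference of -0.018 ± 0.057 SE).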

How the data were processed

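RNA-Seq libraries of control MC3T3-E1 cells, SB216763-treated MC3T3-E1 cells and ECs (3 each) were analyzed from 1 table of counts, whole numbers per Ensembl gene that the authors deposited without normalization. The submitters' processing notes name STAR 2.5.3a and GRCm38. The annotation release and strand setting are not given in the sources used here. The protocol text names SB216763 for every sample, so groups were taken from titles and treatment entries.

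The secretory genes and all lists were chosen with earlier results of these data known, and the control comparisons share libraries. All 45 genes are described. From other lists, the 3 genes with the largest change at 10 CPM or more were named. Col1a1, Col1a2, Col3a1, Col5a1, Col5a2 and the collagen chaperone gene Serpinh1 were chosen for naming together with the lists. Counts were tested in R 4.3.3 with edgeR 4.0.16 (TMM, filterByExpr, a quasi-likelihood fit of all 9 libraries, prior count 0.125, Benjamini-Hochberg adjustment), at the study's cutoffs of an adjusted p of 0.01 and a log2 fold change of 2, and also without the fold. Lengths, coordinates and overlaps came from GENCODE on GRCm38, promoters from RefSeq on GRCm38.p6. Alternatives were DESeq2 1.42.0, limma-voom (limma 3.58.1), other scalings and filters, fits of 2 groups, a replicate block, a prior count of 2, an adjusted p of 0.05, and leaving out each library. The model was tested on simulated counts with 200 changed genes drawn from all those tested. It recovered 136 of them at a log2 fold change of 0.5, 172 at 1 and 200 at 2, with at most 1 false call. Genes not called here can thus still differ by a small amount. Exact permutation tests used scipy 1.17.1. No replicates differed by as little as sampling noise (chi-square per gene 3.06 to 116).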

Additional observations from a re-analysis of the deposited data

How the results depend on the processing

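With library totals in place of TMM, 19 of the 45 secretory genes were lower after SB216763 in place of 29, and the medians moved to -0.087 for SB216763 against control, -0.14 for ECs against control and -0.016 for SB216763 against ECs. Hyou1 (0.036), Creld2 (0.18) and Fkbp14 (0.16) then turned above 0. Without the filter on low counts the median for ECs against control was -0.2874, beside -0.2664 with it. Leaving out 1 library at a time, that median ranged from -0.2934 (without control replicate 3) to -0.2243 (without control replicate 1), and the median for SB216763 against ECs from -0.1039 to -0.0346, the latter without SB216763 replicate 3. The cause of these shifts was not tested. Of 237 counts and medians under alternatives, 8 moved, meaning a count by over 1.5 times or a median by over 1 SD between replicates, and the others changed by less. Of 720 fold changes of single genes, 672 kept their direction and side of the threshold, 13 that were never called changed sign (6 of them with library totals), 21 lost the call, 11 gained it and 3 reversed.

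The labels do not say whether libraries of the same replicate number were paired. Deviations of same-numbered control and SB216763 libraries correlated at 0.00286, 0.123 and 0.081 across genes, and differently numbered ones at -0.123 to 0.0379. For controls and ECs the values were -0.0168, -0.0251 and 0.0337, and differently numbered ones -0.0284 to 0.0465. So few values cannot settle whether control and SB216763 libraries were paired. With the replicate block, 30 secretory genes were lower and 7 higher after SB216763, and Ssr3 gained a call (adjusted p = 0.00765). Counting depth limits few of these values, since every gene held over 3 CPM in each group. With 3 libraries a group, a ratio within libraries cannot pass an exact test.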
